A study of Mus musculus with 16 samples.

Results

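The 9 genes described here code for secreted trophic factors and their receptors: Bdnf, Gdnf, Cntf, Fgf2, Fgf16, Nrg1 and Vegfa are ligands, and Ntrk2 and Ngfr are receptors. They were taken by gene symbol from the count table, where all 9 were present among 19457 genes, and all 9 passed the filter on low counts. RNA came from the striatum of mice labelled GS and of wild-type (WT) mice. GS stands here for LRRK2 G2019S, the mutation in the title of the series, and the labels do not say how that change was introduced. In each genotype the striatum was either intact or had received 0.8 µl of 500 mM ATP by stereotactic injection on 1 side, and injured tissue was taken 6 h, 3 d or 15 d later. This made 8 groups of 2 libraries, in order GS intact, GS 6 h, GS 3 d, GS 15 d and the same stages in WT. The replicates are labelled biological. The labels do not say whether each is 1 mouse or a pool, and p-values measure the spread between these libraries. Neither the age of the mice is stated, nor whether intact tissue came from untouched mice or from the side opposite an injection.

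Neurotrophins such as BDNF are released by neurons and act through TrkB, the product of Ntrk2, and through the low-affinity receptor p75NTR, the product of Ngfr. In striatum, BDNF protein is known to arrive largely along axons from cortex, so that little Bdnf RNA is made locally. GDNF is known for its support of dopamine neurons, and in the adult striatum of rodents it is made mainly by parvalbumin interneurons. CNTF is a cytokine of astrocytes, FGF2 a mitogen of glia and endothelium, neuregulin 1 a ligand of ErbB receptors and VEGF-A the main growth signal of blood vessels.

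Total counts ran from 49220578 to 63948110 per library. Libraries were scaled to CPM (counts scaled to a common library total) with TMM factors of 0.947 to 1.03. The summed level of 8 cortical excitatory neuron markers was 214 CPM in WT intact replicate 1, 129 CPM in WT 6 h replicate 2 and 95.8 CPM in WT 15 d replicate 1. The other libraries had 40.8 to 70.7 CPM, so results in WT are also given without these 3. Dropping them leaves 1 library in each of WT intact, WT 6 h and WT 15 d. A call lost in that fit therefore cannot be assigned to cortical tissue. The 8 striatal projection neuron markers measured (Drd1, Drd2, Adora2a and others) summed to 4854 CPM or more in every library. Lrrk2 differed between GS and WT by a log2 fold change of 0.10 ± 0.06 (SE) averaged over stages, with an edgeR adjusted p of 0.635, and a count per gene cannot show a base change, so this level does not check the genotype labels.

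The 3 members with lower levels at 6 h are shown by the 250 bases before their most upstream RefSeq start, 5′ to 3′ on the gene's strand, since these windows hold the letters searched below. They come from the RefSeq tables for GRCm38.p6 (mm10). The Cntf window is chr19:12765633-12765882 on the minus strand, the Gdnf window is chr15:7809798-7810047 on the plus strand and the Vegfa window is chr17:46032378-46032627 on the minus strand.
Cntf: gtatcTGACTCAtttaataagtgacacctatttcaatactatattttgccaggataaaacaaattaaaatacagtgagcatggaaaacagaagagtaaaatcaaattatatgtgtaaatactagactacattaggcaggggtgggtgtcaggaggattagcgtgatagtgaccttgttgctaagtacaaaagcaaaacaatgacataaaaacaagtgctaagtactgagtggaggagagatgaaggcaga
Gdnf: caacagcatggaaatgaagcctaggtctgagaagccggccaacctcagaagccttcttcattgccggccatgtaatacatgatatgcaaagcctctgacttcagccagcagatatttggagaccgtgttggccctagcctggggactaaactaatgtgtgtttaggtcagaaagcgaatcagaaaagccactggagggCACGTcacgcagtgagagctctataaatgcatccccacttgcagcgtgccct
Vegfa: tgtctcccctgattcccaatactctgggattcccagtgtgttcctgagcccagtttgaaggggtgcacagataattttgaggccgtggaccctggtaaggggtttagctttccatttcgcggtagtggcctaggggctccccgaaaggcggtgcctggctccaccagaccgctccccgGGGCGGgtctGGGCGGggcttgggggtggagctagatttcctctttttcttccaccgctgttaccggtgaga
Capitals mark an AP-1 sequence in Cntf, the reverse complement of the hypoxia response core in Gdnf and 2 Sp1 boxes in Vegfa, none of which overlap one another. Both strands were searched for AP-1 (TGANTCA), CRE (TGACGTCA), the hypoxia response core (ACGTG), STAT (TTCNNNGAA) and Sp1 (GGGCGG). Of the 32851 windows of this length in the table, 6.75% held the AP-1 letters, 1.55% the CRE, 16.6% the hypoxia core, 7.02% the STAT letters and 32.7% the Sp1 box. Among the 15 windows of the 7 members with one, 2 held AP-1, 0 the CRE, 5 the hypoxia core, 1 the STAT letters and 6 the Sp1 box. A match is a description of the letters only. Fgf16 and Nrg1 had no window in the table.

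Per kilobase of exon, the intact striatum held Ntrk2 and Vegfa far above the others, at 30.1 and 26.0 CPM per kb. Nrg1 stood at 2.98, Fgf2 at 2.06 and Gdnf at 1.91 CPM per kb. Fgf16 was at 0.858, Ngfr at 0.734, Cntf at 0.692 and Bdnf at 0.301 CPM per kb, all as means over the 4 intact libraries. The members differed widely in how much they moved. The highest group mean was 18.6 times the lowest for Cntf and 5.77 times for Fgf16, but 1.15 times for Nrg1 and 1.49 times for Ntrk2.

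**Figure D1:**
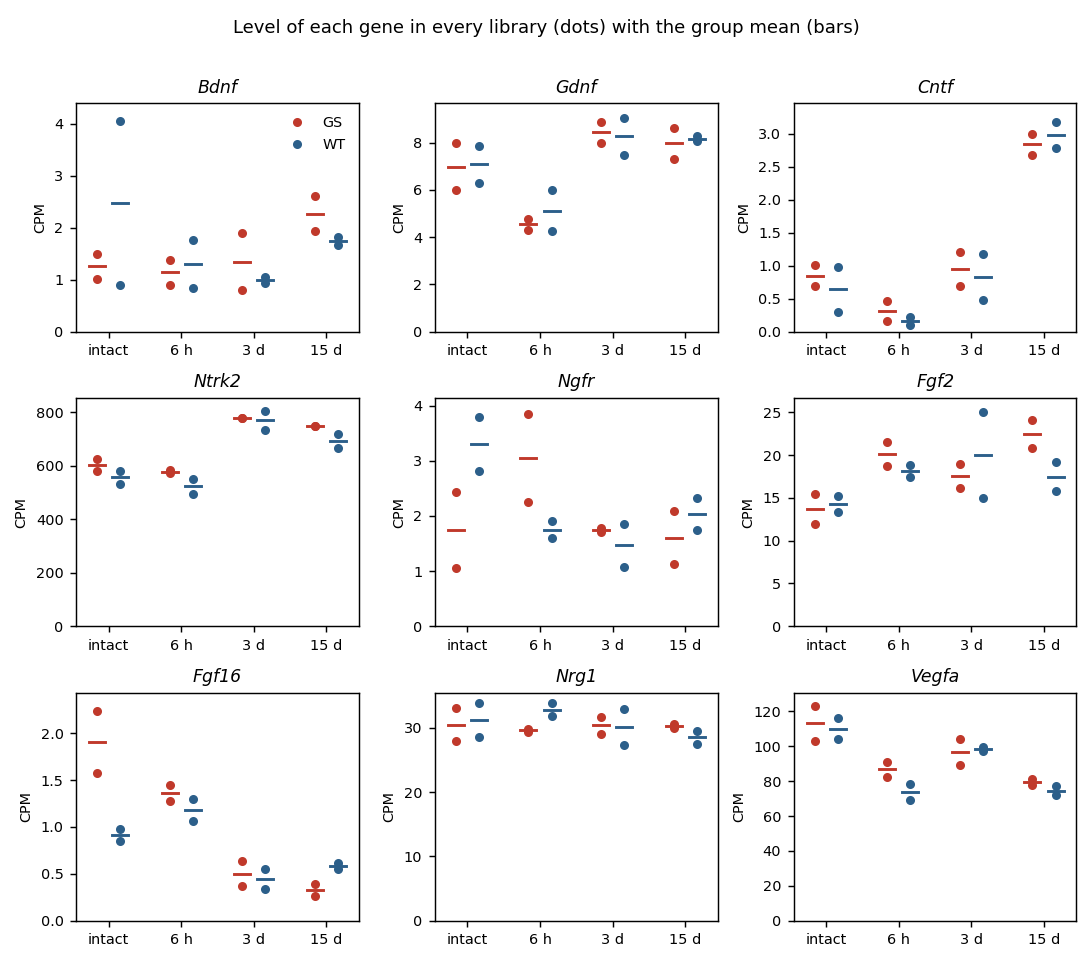
CPM of each of the 9 genes (vertical axis, linear and starting at 0) in every library by stage, with GS in red left of WT in blue and bars at the mean of 2 libraries. Cntf is lowest at 6 h and highest at 15 d in both genotypes, Fgf16 is low at 3 d and 15 d, and the highest Bdnf value is a single WT intact library at 4.06 CPM.

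Averaged over GS and WT, injured striatum at 6 h had less Cntf, Gdnf and Vegfa and more Fgf2 than intact striatum. These 4 of 9 passed the edgeR test at an adjusted p under 0.05, 1 higher and 3 lower, against 21.3% of the 18813 genes tested in either direction, 11.5% higher and 9.76% lower. The median log2 fold change was -0.08 over the 9 members and -0.0028 over all genes. At 3 d Ntrk2 and Fgf2 were higher and Fgf16 and Vegfa lower, 4 of 9 against 46.6% of all genes (23.4% higher, 23.2% lower), with a median of -0.03 over the members and -0.02 over all genes. At 15 d Cntf, Ntrk2 and Fgf2 were higher and Fgf16 and Vegfa lower, 5 of 9 against 47.3% of all genes (23.6% higher, 23.8% lower), with a median of 0.17 over the members and -0.02 over all genes. The shares among members at 3 d and 15 d are near those of the whole table. All 3 comparisons use the same intact libraries.

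**Figure D2:**
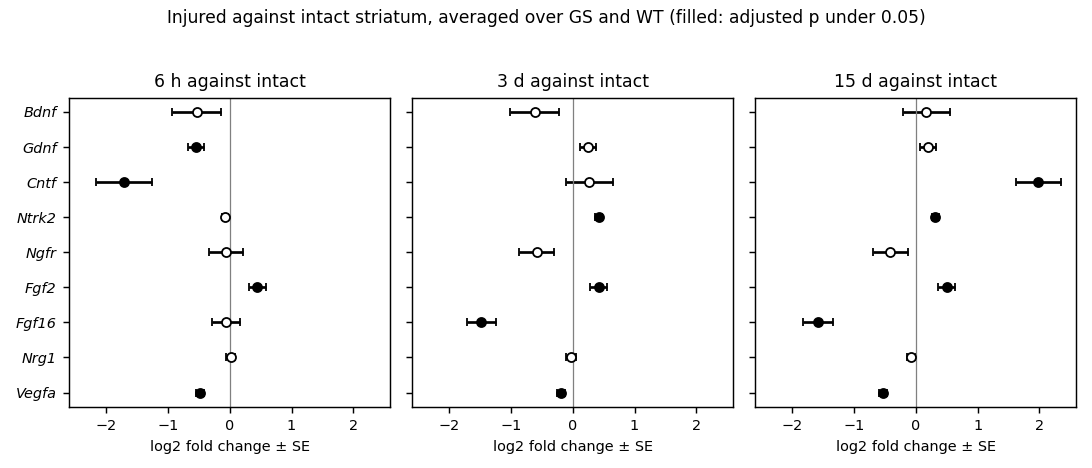
Log2 fold change of each gene in injured against intact striatum at 6 h, 3 d and 15 d (horizontal axis), averaged over GS and WT, with bars of 1 SE and filled points where the edgeR adjusted p is under 0.05. Cntf is at -1.71 at 6 h and 1.98 at 15 d, and Fgf16 is at -1.48 at 3 d and -1.58 at 15 d.

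Cntf, NCBI Gene 12803 at chr19:12763528-12765632 on the minus strand, moved furthest. GS libraries held 0.684 and 1.01 CPM of Cntf when intact, 0.164 and 0.467 CPM 6 h after ATP, 0.685 and 1.21 CPM 3 d after it, then 2.68 and 2.99 CPM 15 d after it. WT libraries held 0.303 and 0.976 CPM of Cntf when intact, 0.102 and 0.217 CPM 6 h after ATP, 0.480 and 1.17 CPM 3 d after it, then 2.78 and 3.17 CPM 15 d after it. All 4 libraries at 15 d stood above every other library, and within each genotype both 6 h libraries stood below both intact ones. Averaged over genotypes, Cntf fell at 6 h by 1.71 ± 0.45 on the log2 scale (SE; edgeR adjusted p = 0.0148) and rose at 15 d by 1.98 ± 0.36 (adjusted p = 0.000433), a fold of 3.95. From stage to stage it rose between 6 h and 3 d (1.98 ± 0.44, adjusted p = 0.00171) and again between 3 d and 15 d (1.71 ± 0.35, adjusted p = 0.00733). The rise at 15 d passed in GS (1.74 ± 0.50, adjusted p = 0.0143) and in WT (2.22 ± 0.52, adjusted p = 0.00662), while the values at 6 h did not pass within GS (-1.44 ± 0.59, adjusted p = 0.123) or within WT (-1.99 ± 0.67, adjusted p = 0.11). With DESeq2 the WT value at 6 h passed (adjusted p = 0.0259). The 6 h libraries hold 6 to 26 counts of Cntf each, and without GS intact replicate 2, WT intact replicate 2, GS 6 h replicate 1 or WT 6 h replicate 1 the call at 6 h was lost, with an adjusted p of up to 0.107. The rise at 15 d was lost in GS without GS intact replicate 1 or GS 15 d replicate 2 (up to 0.106) or with a cortical covariate (0.0595), and in WT without WT intact replicate 1 (0.077) or once the 3 cortical-rich WT libraries were dropped (0.11).

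In the GENCODE annotation 847 exon bases of Cntf are shared with transcripts of Zfp91, the neighbouring gene on the same strand, and the sources used here do not say how the counting treated these bases. Cntf counts were 0.0675 to 2.24% of the Zfp91 counts, so a small share of Zfp91 reads could weigh on Cntf. Whether reads from the shared bases weighed on Cntf was not tested, since a count per gene does not part them from the rest. Zfp91 as a whole gene, which cannot decide this, moved differently from Cntf. Its log2 fold change was -0.0022 ± 0.05 at 6 h (adjusted p = 0.985) and 0.05 ± 0.05 at 15 d (adjusted p = 0.485), and it rose at 3 d by 0.18 ± 0.05 (adjusted p = 0.0143), in edgeR's test.

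Markers of several glial types correlated with Cntf over the libraries, and these types differed in how they moved at each time. At 3 d Cntf did not pass against intact striatum averaged over genotypes. At that time astrocyte and microglial markers rose, and oligodendrocyte precursor markers went both ways. Over the 16 libraries the 3 genes whose log2 CPM was most like that of Cntf, among 15349 searched, were S100b (Pearson r = 0.93), Gpr37l1 (r = 0.93) and Gdpd2 (r = 0.92), with no p since the libraries share the injury groups. S100b codes for a calcium-binding protein of astrocytes. The 8 astrocyte markers (Gfap, Aqp4, Aldh1l1 and others) summed to 4964 to 5183 CPM in intact striatum, 4560 to 4804 CPM at 6 h, 6454 to 7838 CPM at 3 d and 6831 to 7298 CPM at 15 d. Of these 8, 1 rose at 6 h, 5 rose at 3 d and 5 rose at 15 d, and 0 fell at any of these times. For this and the other marker counts of this paragraph, 21.3%, 46.6% and 47.3% of all genes were called at these times. The 7 oligodendrocyte precursor markers summed to 533 to 566 CPM intact, 423 to 483 CPM at 6 h, 428 to 599 CPM at 3 d and 551 to 681 CPM at 15 d. Of these 7, 1 rose and 6 fell at 6 h, 2 rose and 1 fell at 3 d, and 3 rose and 0 fell at 15 d. The 8 microglial markers (Cx3cr1, P2ry12, Tmem119 and others) summed to 378 to 402 CPM intact, 267 to 301 CPM at 6 h, 716 to 1381 CPM at 3 d and 895 to 1848 CPM at 15 d, where 4 of 8 fell at 6 h and 8 of 8 rose at 3 d and at 15 d. Cntf correlated with the sum of the oligodendrocyte precursor markers at r = 0.86, of the microglial markers at r = 0.81 and of the astrocyte markers at r = 0.79. With the sum of 8 oligodendrocyte markers it correlated at r = 0.73. Of those 8, 0 were called at 6 h and at 3 d, and 6 rose and 0 fell at 15 d. The part of these markers in the Cntf levels was not tested. In whole tissue, fewer cells of a type and less RNA per cell cannot be told apart.

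Of the receptor parts that CNTF uses, the shared signalling chain rose averaged over genotypes, and the chain specific to CNTF did not pass in that average. Il6st, coding for gp130, rose at 3 d by 0.61 ± 0.07 and at 15 d by 0.75 ± 0.07 (edgeR adjusted p = 1.41e-05 and 2.2e-06), with 109 ± 7.9 CPM in GS and 102 ± 14 CPM in WT at 15 d, against 67.0 ± 2.0 CPM in intact GS and 58.5 ± 2.7 CPM in intact WT (SD, n = 2 each). Cntfr, coding for the receptor chain that binds CNTF, had log2 fold changes of 0.02 ± 0.07 at 6 h, -0.14 ± 0.07 at 3 d and -0.04 ± 0.07 at 15 d (edgeR adjusted p = 0.864, 0.0978 and 0.667). Lifr, coding for the LIF receptor, had 0.25 ± 0.09, 0.18 ± 0.09 and 0.14 ± 0.09 at these times (adjusted p = 0.0563, 0.112 and 0.225). Within GS, Cntfr fell at 3 d by 0.28 ± 0.09 (adjusted p = 0.0307) and Lifr rose at 6 h by 0.53 ± 0.13 (adjusted p = 0.0133). Among the 8 genes of the CNTF family list, all measured, 2 rose and 1 fell at 6 h, 4 rose at 3 d and 5 rose at 15 d, against 21.3%, 46.6% and 47.3% of all genes called at these times in either direction.

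Gdnf, NCBI Gene 14573 at chr15:7810048-7837580 on the plus strand, was lower at 6 h. GS libraries held 5.98 and 7.99 CPM of Gdnf when intact, 4.77 and 4.31 CPM 6 h after ATP, 8.89 and 7.97 CPM 3 d after it, then 8.61 and 7.32 CPM 15 d after it. WT libraries held 7.84 and 6.31 CPM of Gdnf when intact, 4.26 and 5.98 CPM 6 h after ATP, 9.05 and 7.47 CPM 3 d after it, then 8.05 and 8.28 CPM 15 d after it. All 4 libraries at 6 h lay below all 4 intact ones. Averaged over genotypes, Gdnf fell by 0.54 ± 0.13 on the log2 scale at 6 h (edgeR adjusted p = 0.0112) and rose between 6 h and 3 d by 0.79 ± 0.13 (adjusted p = 0.000212). Against intact striatum it was at 0.25 ± 0.13 at 3 d (adjusted p = 0.14) and 0.20 ± 0.13 at 15 d (adjusted p = 0.237). With a cortical covariate the 3 d value was 0.47 and passed (adjusted p = 0.0431). Without GS intact replicate 2, WT intact replicate 1 or WT 6 h replicate 1 the fall at 6 h lost its call, with an adjusted p of up to 0.0551. Within GS it fell by 0.62 ± 0.19 (adjusted p = 0.0435), and WT had -0.47 ± 0.19 (adjusted p = 0.179). The GS call was lost with limma-voom, without the low-count filter and with a cortical covariate (adjusted p up to 0.0826). It was also lost without GS intact replicate 2, either GS 6 h library or any GS or WT 15 d library (up to 0.32).

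The receptors of GDNF did not move as one. Gfra1, the chain that binds GDNF, fell at 6 h by 0.28 ± 0.06 (edgeR adjusted p = 0.00468) and rose by 0.36 ± 0.06 at 3 d and 0.52 ± 0.06 at 15 d (adjusted p = 0.000192 and 8.12e-06). Ret, the signalling kinase, stayed between 1.86 and 3.03 CPM as group means and passed at no time, with -0.25 ± 0.15, -0.04 ± 0.15 and -0.25 ± 0.15 at 6 h, 3 d and 15 d. Ncam1, coding for an adhesion molecule that is another GDNF receptor, fell at 6 h by 0.13 ± 0.04. Of the 8 measured genes of the 10 in the GDNF family list, 3 fell at 6 h, 1 rose and 3 fell at 3 d, and 1 rose and 2 fell at 15 d, against the same 21.3%, 46.6% and 47.3% of all genes. The genes most like Gdnf over the 16 libraries were Dbpht2 (r = 0.91), Rai2 (r = 0.90) and Npas4 (r = 0.90), the last coding for a transcription factor induced by neuronal activity.

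Vegfa, NCBI Gene 22339 at chr17:46016993-46032377 on the minus strand, was lower at every time after injury. GS libraries held 103 and 123 CPM of Vegfa when intact, 91.2 and 82.3 CPM 6 h after ATP, 104 and 89.2 CPM 3 d after it, then 81.4 and 77.5 CPM 15 d after it. WT libraries held 104 and 116 CPM of Vegfa when intact, 78.3 and 69.1 CPM 6 h after ATP, 99.5 and 97.4 CPM 3 d after it, then 77.1 and 72.0 CPM 15 d after it. Every library at 6 h and at 15 d lay below every intact one, while the 3 d libraries overlapped them. Averaged over genotypes, Vegfa fell by 0.48 ± 0.07 at 6 h, by 0.19 ± 0.07 at 3 d and by 0.53 ± 0.07 at 15 d on the log2 scale (edgeR adjusted p = 0.000409, 0.0345 and 2.48e-05). Between 6 h and 3 d it rose by 0.29 ± 0.07 (adjusted p = 0.00335), and between 3 d and 15 d it fell by 0.34 ± 0.07 (adjusted p = 0.00692). The fall at 3 d lost its call without GS intact replicate 2, WT intact replicate 2, GS 3 d replicate 2 or either WT 3 d library, with an adjusted p of up to 0.174, and with only the compared groups in the model (0.0592). Within GS at 3 d Vegfa was at -0.23 and did not pass, and without GS intact replicate 1 or GS 3 d replicate 1 it was at -0.34 and did (adjusted p = 0.0369 and 0.033). In WT at 6 h the fall was 0.58 ± 0.10 (adjusted p = 0.00743), and leaving out 1 library at a time gave -0.67 to -0.49. The call was lost without WT intact replicate 2 or WT 6 h replicate 2. It was also lost once the 3 cortical-rich WT libraries were dropped, which left 1 library against 1. In GS at 6 h the fall of 0.38 ± 0.10 (adjusted p = 0.0195) was lost without GS intact replicate 2 or either GS 6 h library (up to 0.195).

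Averaged over genotypes, the VEGF receptors Kdr, Flt1 and Nrp1 were lower with Vegfa at 6 h. At 3 d and 15 d Flt1 and Nrp1 were higher in that average, while Kdr did not pass. Kdr, coding for VEGFR2, fell at 6 h by 0.86 ± 0.16 (edgeR adjusted p = 0.00222), to 3.98 ± 0.53 CPM in GS and 6.20 ± 0.27 CPM in WT, against 10.0 ± 0.75 CPM in intact GS and 8.15 ± 2.6 CPM in intact WT (SD, n = 2 each). At 3 d and 15 d Kdr had log2 fold changes of -0.08 ± 0.16 and -0.10 ± 0.16 (adjusted p = 0.691 and 0.639). Flt1, coding for VEGFR1, fell at 6 h by 0.54 ± 0.12 (adjusted p = 0.00557) and rose at 3 d by 0.39 ± 0.12 and at 15 d by 0.37 ± 0.12 (adjusted p = 0.0138 and 0.0165). Nrp1, coding for neuropilin 1, a co-receptor of VEGF-A, fell at 6 h by 0.44 ± 0.14 and rose by 1.24 ± 0.13 at 3 d and 1.47 ± 0.13 at 15 d (adjusted p = 0.0348, 5.21e-06 and 1.12e-06). Of the 10 measured genes of the VEGF list, 6 fell at 6 h, 3 rose and 1 fell at 3 d, and 3 rose and 1 fell at 15 d, against 21.3%, 46.6% and 47.3% of all genes. Within GS 6 fell at 6 h, with Kdr, Flt1 and Nrp1 among them, against 13.8% of all genes called. Within WT only Vegfa fell, against 4.09%. The 8 endothelial markers (Pecam1, Cldn5, Cdh5 and others) summed to 88.1 to 116 CPM intact, 71.1 to 83.9 CPM at 6 h, 101 to 151 CPM at 3 d and 94.7 to 118 CPM at 15 d. Averaged over genotypes 5 of 8 fell at 6 h, with 5 lower within GS and 1 within WT. The part of these markers in the values was not tested. The genes most like Vegfa over the 16 libraries were Arpc5l (r = 0.91), Vat1l (r = 0.91) and Cfdp1 (r = 0.90).

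Fgf2, NCBI Gene 14173 at chr3:37348477-37410106 on the plus strand, was higher at all 3 times. GS libraries held 11.9 and 15.5 CPM of Fgf2 when intact, 21.5 and 18.7 CPM 6 h after ATP, 16.1 and 19.0 CPM 3 d after it, then 20.8 and 24.1 CPM 15 d after it. WT libraries held 13.4 and 15.2 CPM of Fgf2 when intact, 18.8 and 17.5 CPM 6 h after ATP, 25 and 15.0 CPM 3 d after it, then 15.8 and 19.2 CPM 15 d after it. The injured libraries at 6 h and 15 d lay above all intact ones, and WT 3 d replicate 2 overlapped them. Averaged over genotypes, Fgf2 rose by 0.45 ± 0.14 at 6 h, 0.42 ± 0.14 at 3 d and 0.50 ± 0.14 at 15 d (edgeR adjusted p = 0.0337, 0.0231 and 0.00858), and within GS it rose at 15 d (0.71 ± 0.20, adjusted p = 0.0109, up to 0.113 without GS intact replicate 1 or GS 15 d replicate 2). Within GS at 6 h Fgf2 was at 0.55 and did not pass, but it passed with DESeq2 (adjusted p = 0.0321), with only the compared groups (0.023) and without either WT 3 d library (0.0203 and 0.0186). Within WT at 3 d it was at 0.48 and did not pass, but it passed with DESeq2 (0.0399) and, at 0.80, without WT 3 d replicate 2 (0.00636). The averaged calls at 6 h and 3 d were lost with a covariate for cortical markers or without the 3 WT libraries highest in them (adjusted p up to 0.166 at 6 h and 0.19 at 3 d). They were also lost at 6 h without GS intact replicate 1, GS 6 h replicate 1 or any WT intact or WT 6 h library (up to 0.13), and at 3 d without GS intact replicate 1, WT intact replicate 1, GS 3 d replicate 2 or WT 3 d replicate 1 (up to 0.138).

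Exons of Fgf2 and of Nudt6, on the opposite strand, share 640 bases, and the use of strand is not given. Nudt6 had 61 to 161 counts per library against 696 to 1457 for Fgf2 and passed at no time. Nearest to Fgf2 over the 16 libraries were Tfcp2l1 (r = 0.92), Cyp1b1 (r = 0.90) and Sdc4 (r = 0.88), the last coding for syndecan 4, a heparan sulfate proteoglycan that binds FGF2.

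Fgf16, NCBI Gene 80903 at chrX:105764477-105776532 on the plus strand, codes for a secreted FGF of the FGF9 subfamily and went the other way from Fgf2. GS libraries held 1.57 and 2.24 CPM of Fgf16 when intact, 1.28 and 1.45 CPM 6 h after ATP, 0.636 and 0.366 CPM 3 d after it, then 0.264 and 0.396 CPM 15 d after it. WT libraries held 0.855 and 0.976 CPM of Fgf16 when intact, 1.06 and 1.30 CPM 6 h after ATP, 0.549 and 0.339 CPM 3 d after it, then 0.620 and 0.551 CPM 15 d after it. Every library at 3 d and 15 d lay below every intact and every 6 h library. Averaged over genotypes, Fgf16 fell by 1.48 ± 0.24 at 3 d and fell by 1.58 ± 0.24 at 15 d (edgeR adjusted p = 0.000162 and 0.000100), and it fell between 6 h and 3 d by 1.42 ± 0.24 (adjusted p = 0.000184). Within GS it fell by 1.91 ± 0.33 at 3 d and fell by 2.52 ± 0.35 at 15 d (adjusted p = 0.000501 and 8.19e-05). Within WT it fell by 1.05 ± 0.34 at 3 d (adjusted p = 0.0355) and was at -0.64 ± 0.34 at 15 d (adjusted p = 0.18). The WT call at 3 d was lost without either WT intact library or WT 3 d replicate 2 (adjusted p up to 0.244), and also with a cortical covariate, without the 3 WT libraries or with only the groups compared in the model (up to 0.125).

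Fgf16 tracked genes of striatal projection neurons. The 3 genes most like it, among 15350 searched, were 5730409E04Rik (r = 0.95), Adcy5 (r = 0.95), coding for the main adenylyl cyclase of the striatum, and Lrrc10b (r = 0.95). The 8 projection neuron markers summed to 6253 to 7938 CPM intact, 6238 to 6793 CPM at 6 h, 5078 to 6320 CPM at 3 d and 4854 to 5256 CPM at 15 d. At 15 d 7 of 8 fell and 1 rose, where 23.8% of all genes fell and 23.6% rose. Fgf16 correlated with that sum at r = 0.88 and with the summed microglial markers at r = -0.87, over the same 16 libraries and with no p. The part of these cell populations in the Fgf16 levels was not tested.

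**Figure D3:**
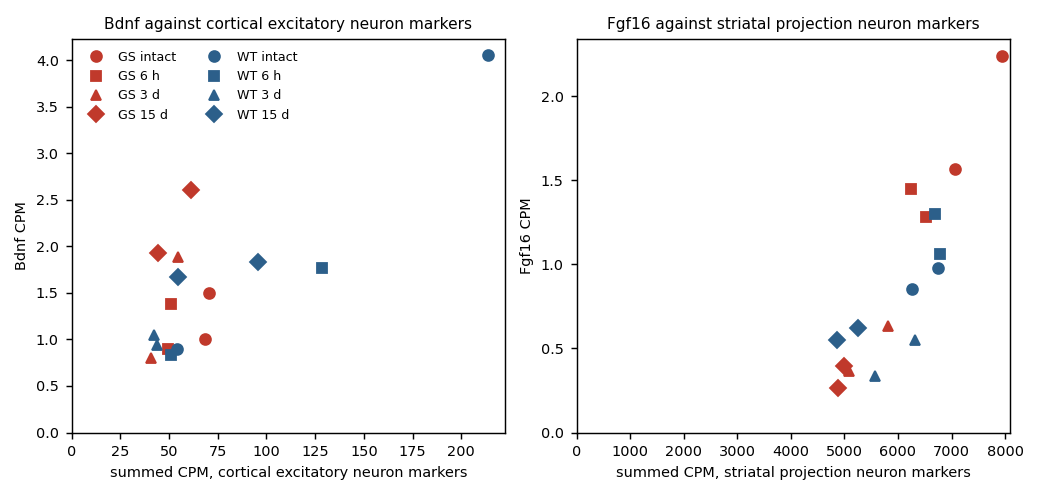
CPM of Bdnf against the summed CPM of 8 cortical excitatory neuron markers (left) and of Fgf16 against the summed CPM of 8 striatal projection neuron markers (right), 1 point per library, GS red and WT blue, stages by shape, all axes linear. A single WT intact library is highest on both axes at the left, and at the right the 3 d and 15 d libraries have the lowest Fgf16. WT 3 d replicate 1, at 6320 CPM of markers, lies to the right of WT intact replicate 1, at 6253 CPM.

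Called FGF genes lay in both directions. The list holds FGF genes by name and is not limited to secreted ligands. Of 15 measured of 22 listed, Fgf2 and Fgf16 included, 1 rose and 2 fell at 6 h. At 3 d 2 rose and 6 fell, and at 15 d 2 rose and 7 fell. Over all genes 21.3%, 46.6% and 47.3% were called at these times. Those that fell included Fgf13 at 6 h, Fgf11 and Fgf13 at 3 d, and Fgf11, Fgf12, Fgf13 and Fgf14 at 15 d. Fgf1, coding for acidic FGF, rose by 0.47 ± 0.08 at 3 d (edgeR adjusted p = 0.00023), while Fgf9 fell by 0.60 ± 0.11 and Fgf3 fell by 1.58 ± 0.19 at 15 d (adjusted p = 0.0005 and 1.34e-05). The 5 measured receptor genes had 2 lower at 6 h, 3 higher at 3 d, and 4 higher and 1 lower at 15 d. Fgfr2 fell by 0.52 ± 0.08 at 6 h and rose by 0.52 ± 0.08 at 15 d, Fgfr1 rose by 0.22 ± 0.07 at 3 d and 0.25 ± 0.07 at 15 d, and Fgfr3, an astrocyte receptor, fell by 0.18 ± 0.06 at 15 d (adjusted p = 0.0307). Fgfrl1, coding for an FGF receptor without a kinase domain, fell by 0.70 ± 0.16 at 6 h and rose by 1.56 ± 0.15 at 3 d (adjusted p = 0.00755 and 2.64e-06).

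Genes that FGF and ERK signalling are known to induce were lower at 6 h and higher at 3 d. Of the 12 listed, all measured, 9 fell and 0 rose at 6 h, 8 rose and 0 fell at 3 d, and 5 rose and 3 fell at 15 d. Over all genes 9.76% fell at 6 h, 23.4% rose at 3 d and 47.3% were called at 15 d. The median log2 fold change of these 12 was -0.50 at 6 h and 0.45 at 3 d, against -0.0028 and -0.02 over all genes. Etv5, an ETS transcription factor, fell by 1.28 ± 0.07 at 6 h (edgeR adjusted p = 2.99e-07), to 32.8 ± 1.4 CPM in GS and 36.8 ± 0.88 CPM in WT, against 91.4 ± 8.5 CPM in intact GS and 77.5 ± 5.4 CPM in intact WT (SD, n = 2 each). Spred3, coding for an inhibitor of ERK signalling, fell by 0.95 ± 0.06 at 6 h. Dusp4 and Dusp6, coding for phosphatases of MAP kinases, rose by 1.40 ± 0.15 and 1.05 ± 0.13 at 3 d. Between 6 h and 3 d all 12 rose, where 24.6% of all genes rose and 49.3% were called in either direction.

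**Figure D4:**
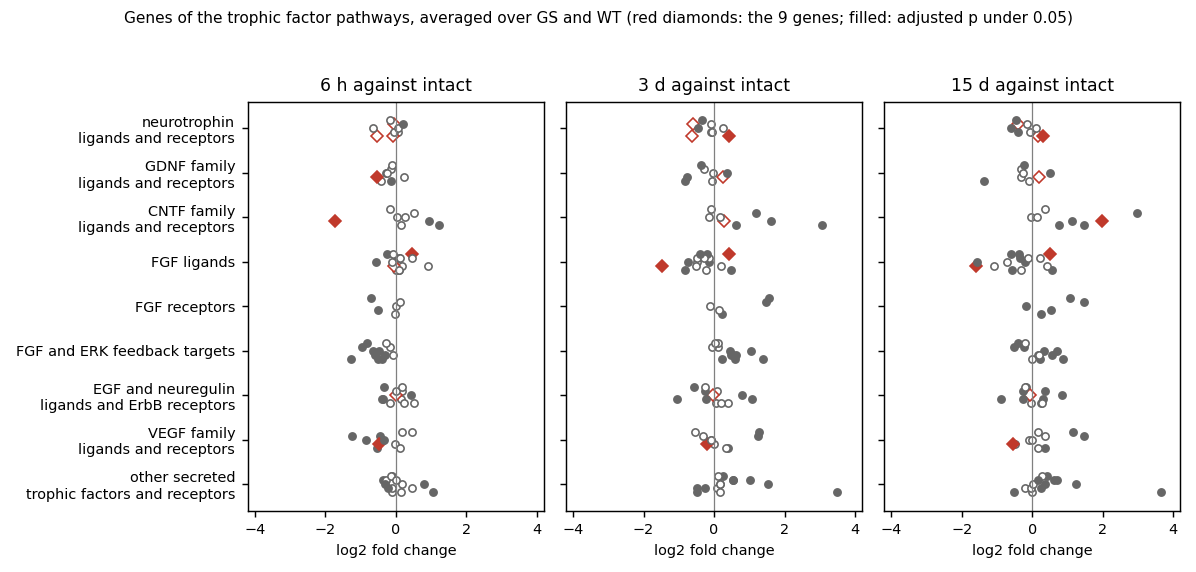
Log2 fold change (horizontal axis) of every measured gene of the 9 trophic factor lists in injured against intact striatum at 6 h, 3 d and 15 d, averaged over GS and WT, with the 9 members as red diamonds and filled symbols where the edgeR adjusted p is under 0.05. The FGF and ERK feedback targets lie left of 0 at 6 h, with 9 of 12 lower, and 8 of 12 are higher at 3 d.

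Among the neurotrophin members the receptor Ntrk2 rose. The ligand Bdnf did not pass at any time in the edgeR fit of all 16 libraries without a covariate. Some alternative fits called Bdnf, averaged over genotypes or within 1 genotype. Ntrk2, NCBI Gene 18212 at chr13:58806472-59133970 on the plus strand, codes for TrkB, and counts per gene do not part its kinase form from the truncated form that astrocytes make. GS libraries held 580 and 626 CPM of Ntrk2 when intact, 583 and 571 CPM 6 h after ATP, 778 and 780 CPM 3 d after it, then 748 and 747 CPM 15 d after it. WT libraries held 533 and 581 CPM of Ntrk2 when intact, 495 and 550 CPM 6 h after ATP, 805 and 735 CPM 3 d after it, then 668 and 720 CPM 15 d after it. Every library at 3 d and 15 d lay above every intact and 6 h library. Averaged over genotypes, Ntrk2 rose by 0.42 ± 0.05 at 3 d and 0.31 ± 0.05 at 15 d (edgeR adjusted p = 2.14e-05 and 0.000234), and its value at 6 h was -0.08 ± 0.05 (adjusted p = 0.332). The rise passed in GS at 3 d (0.37 ± 0.08, adjusted p = 0.00164) and 15 d (0.31 ± 0.08, adjusted p = 0.00484), and in WT at 3 d (0.47 ± 0.08, adjusted p = 0.000531) and 15 d (0.32 ± 0.08, adjusted p = 0.00697). At 15 d the call was lost in GS without GS intact replicate 1, and in WT without WT intact replicate 1 or WT 15 d replicate 2. It was also lost in WT without the 3 cortical-rich libraries, which left 1 library against 1. Leaving out 1 library at a time gave a rise of 0.26 to 0.36 in GS and 0.26 to 0.38 in WT.

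The genes most like Ntrk2 over the 16 libraries were Pfkfb3 (r = 0.97), Arid5b (r = 0.96) and Myl12a (r = 0.96). Ntrk2 correlated with the summed astrocyte markers given above at r = 0.91. It also did so with the 6 measured fibroblast and meninges markers at r = 0.92, which summed to 35.0 to 48.2 CPM intact and 89.2 to 204 CPM at 3 d. The part of these populations in the Ntrk2 levels was not tested.

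Bdnf, NCBI Gene 12064 at chr2:109674700-109727043 on the plus strand, was low and uneven. GS libraries held 1.5 and 1.01 CPM of Bdnf when intact, 1.38 and 0.897 CPM 6 h after ATP, 0.800 and 1.89 CPM 3 d after it, then 2.61 and 1.93 CPM 15 d after it. WT libraries held 4.06 and 0.901 CPM of Bdnf when intact, 0.835 and 1.77 CPM 6 h after ATP, 0.943 and 1.05 CPM 3 d after it, then 1.83 and 1.67 CPM 15 d after it. The highest library, WT intact replicate 1, is also the one highest in cortical markers, and Slc17a7, coding for the glutamate transporter of cortical neurons, had 136 CPM there against 15.6 CPM in WT intact replicate 2. Averaged over genotypes, the log2 fold changes of Bdnf were -0.54 ± 0.40 at 6 h, -0.62 ± 0.40 at 3 d and 0.17 ± 0.39 at 15 d (edgeR adjusted p = 0.371, 0.223 and 0.743). Without WT intact replicate 1 the value at 15 d was 0.90 and passed (adjusted p = 0.0463), and with the cortical markers as a covariate it was 0.94 (adjusted p = 0.0272). Without WT intact replicate 2 the value at 3 d was -0.97 and passed (adjusted p = 0.0237). The 3 d value changed sign, to 0.55 with the cortical covariate and 0.11 without WT intact replicate 1, as did the 6 h value without WT intact replicate 1 (0.19) and the 15 d value without WT intact replicate 2 (-0.18), and none of these passed. Over the 16 libraries Bdnf correlated with the summed cortical markers at r = 0.70, and the part of cortical tissue in the Bdnf levels was not tested beyond these fits. Nearest to Bdnf were C1ql3 (r = 0.86), Col5a1 (r = 0.85) and Vxn (r = 0.82).

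Ngfr, NCBI Gene 18053 at chr11:95568818-95587698 on the minus strand, codes for p75NTR, a marker of basal forebrain cholinergic neurons. GS libraries held 2.44 and 1.06 CPM of Ngfr when intact, 2.26 and 3.84 CPM 6 h after ATP, 1.70 and 1.78 CPM 3 d after it, then 2.09 and 1.12 CPM 15 d after it. WT libraries held 2.81 and 3.79 CPM of Ngfr when intact, 1.91 and 1.59 CPM 6 h after ATP, 1.08 and 1.86 CPM 3 d after it, then 1.74 and 2.32 CPM 15 d after it. In WT every injured library lay below both intact ones, and in GS the injured and intact libraries overlapped at each time. Averaged over genotypes Ngfr passed at no time (-0.06 ± 0.28, -0.59 ± 0.28 and -0.41 ± 0.28 at 6 h, 3 d and 15 d), and within WT it fell at 3 d by 1.16 ± 0.40 (edgeR adjusted p = 0.0437). The averaged value at 3 d passed without GS intact replicate 2 (-0.82, adjusted p = 0.0264), and the WT value at 6 h passed with only the compared groups (-0.92, adjusted p = 0.0487). The WT call at 3 d was lost in 4 of 9 alternative settings (adjusted p up to 0.103) and without either WT intact, WT 6 h or GS 3 d library or WT 3 d replicate 1 (up to 0.238). Nearest to Ngfr were Npas1 (r = 0.84), coding for a transcription factor of pallidal neurons, Ubap1l (r = 0.82) and Ccdc9b (r = 0.81).

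Of the other neurotrophin receptors, Ntrk3, coding for the receptor of neurotrophin 3, fell by 0.39 ± 0.05 at 15 d (edgeR adjusted p = 4.46e-05). Sorcs2, coding for a co-receptor of p75NTR, fell by 0.47 ± 0.05 at 3 d and 0.59 ± 0.05 at 15 d (adjusted p = 7.38e-06 and 8.44e-07).

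Nrg1, NCBI Gene 211323 at chr8:31807452-32891609 on the minus strand, varied least. GS libraries held 27.9 and 33.1 CPM of Nrg1 when intact, 29.4 and 29.8 CPM 6 h after ATP, 31.7 and 29.1 CPM 3 d after it, then 29.9 and 30.6 CPM 15 d after it. WT libraries held 28.6 and 33.8 CPM of Nrg1 when intact, 33.8 and 31.8 CPM 6 h after ATP, 33.0 and 27.4 CPM 3 d after it, then 29.5 and 27.5 CPM 15 d after it. Injured and intact libraries overlapped throughout. Group means ran from 28.5 ± 1.4 CPM in WT at 15 d to 32.8 ± 1.4 CPM in WT at 6 h (SD, n = 2 each). Its log2 fold changes after injury were 0.01 ± 0.08, -0.03 ± 0.08 and -0.07 ± 0.08 at 6 h, 3 d and 15 d (edgeR adjusted p = 0.918, 0.798 and 0.46). Nrg1 has 43 RefSeq transcripts, and a count per gene does not part them. The genes most like it were Ddx5 (r = 0.76), Khsrp (r = 0.75) and Gm13414 (r = 0.75). Of its receptors, Erbb3 fell by 0.34 ± 0.07 at 6 h, by 0.56 ± 0.07 at 3 d and by 0.17 ± 0.06 at 15 d (adjusted p = 0.00252, 1.12e-05 and 0.044), Erbb2 rose by 0.37 ± 0.14 at 15 d (adjusted p = 0.0364), and Erbb4 had 0.24 ± 0.08, 0.06 ± 0.08 and -0.03 ± 0.08 (adjusted p = 0.0523, 0.558 and 0.769). The 12 measured genes of the EGF and neuregulin list had 1 higher and 3 lower at 6 h, 2 higher and 4 lower at 3 d, and 3 higher and 4 lower at 15 d, against 21.3%, 46.6% and 47.3% of all genes. Hbegf, coding for heparin-binding EGF, rose by 1.07 ± 0.08 at 3 d, and Egfr rose by 0.43 ± 0.07, 0.79 ± 0.07 and 0.86 ± 0.07 at 6 h, 3 d and 15 d (adjusted p = 0.000755, 7.53e-07 and 3.31e-07).

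The members were also counted within each genotype, where each comparison sets 2 libraries against 2. In GS 2 of 9 were lower at 6 h against 13.8% of all genes called (7.47% higher, 6.37% lower). At 3 d 1 was higher and 1 lower in GS against 35.1% (18.6% higher, 16.4% lower), and at 15 d 3 were higher and 2 lower against 37.1% (19.4% higher, 17.6% lower). In WT 1 was lower at 6 h against 4.09% (2.54% higher, 1.55% lower). At 3 d 1 was higher and 2 lower in WT against 27.4% (14.7% higher, 12.7% lower), and at 15 d 2 were higher and 1 lower against 25.4% (14.2% higher, 11.2% lower). Between stages, 4 members rose and 1 fell between 6 h and 3 d against 49.3% of all genes (24.6% higher, 24.8% lower). Between 3 d and 15 d 1 rose and 1 fell against 13.8% (6.76% higher, 7.07% lower). The 2 genotypes' counts are not a test of a difference between them.

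GS and WT were compared directly at each stage, averaged over stages, and in the injury response. With edgeR 0 of 9 members passed in any of these 8 comparisons, where 0 to 0.0159% of all genes did (0.0159% intact, 0.00532% at 6 h, 0.0106% at 3 d, 0.00532% at 15 d, 0.0106% averaged, and 0.0106%, 0 and 0% for the response at 6 h, 3 d and 15 d). DESeq2 and limma-voom also gave 0 members. Over all genes DESeq2 called 165 in intact tissue, 57 at 6 h, 17 at 3 d, 3 at 15 d and 75 averaged over stages. For the response it called 132, 66 and 20 genes at 6 h, 3 d and 15 d. With limma-voom 6 genes were called in intact tissue and 0 to 2 in the other comparisons. At an unadjusted p under 0.05 edgeR gave 2 members in intact tissue, 1 at 6 h, 0 at 3 d, 1 at 15 d and 1 averaged over stages. It gave 1, 0 and 1 for the response at 6 h, 3 d and 15 d. Of all 18813 genes, 2056, 1285, 1552 and 915 were under it at the 4 stages and 1857 averaged over them. For the response 1772, 1866 and 1028 genes were. The members nearest to a difference were Fgf16 and Ngfr. In intact striatum Fgf16 had 1.91 ± 0.47 CPM in GS and 0.916 ± 0.086 CPM in WT (SD, n = 2 each), a log2 fold change of 1.06 ± 0.31 (edgeR adjusted p = 0.293), and its response at 15 d differed by -1.88 ± 0.49, GS minus WT (adjusted p = 0.873). Ngfr had 1.75 ± 0.98 CPM in intact GS and 3.30 ± 0.69 CPM in intact WT (-0.91 ± 0.40, adjusted p = 0.425), and its response at 6 h differed by 1.71 ± 0.56 (adjusted p = 0.384). Ntrk2 had a log2 fold change of 0.10 ± 0.04 averaged over stages (adjusted p = 0.445).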

How the data were processed

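RNA-seq was done on 16 striatal libraries, with RNA from RNeasy kits and TruSeq libraries, per the labels' protocols. The authors deposited raw read counts per gene in 1 table, and every gene listed has at least 1 count in every library. FastQC 0.11.7 and build mm10 are named in the submitters' processing notes, and no source used here names the aligner or counter or says whether strand was used. Columns named NT were taken as WT, and those numbered 0 as intact, since no other group was left for them.

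The counts were tested with edgeR 4.0.16 (R 4.3.3): TMM scaling, filterByExpr by group (18813 genes kept, 644 removed), 1 coefficient per group over all 16 libraries and the quasi-likelihood test, with Benjamini-Hochberg adjustment over all genes kept in each of 19 contrasts. The SE printed with a fold change is its absolute log2 value over the root of the F statistic. DESeq2 1.42.0 and limma 3.58.1 (voom) were alternatives, as were other scalings, filters and model designs, and the script was tested on simulated data. Correlations use log2 CPM with a prior count of 2.

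The 9 members, the gene and marker lists, the cortical covariate and the omission of 3 WT libraries were chosen with earlier results of these data known. Besides the members, up to 3 genes per list and time were named, the ones that changed most among those called and averaging 1 CPM or more, plus the receptors of each ligand. Slc17a7, Nudt6 and Lrrk2 were added as checks. Some neurotrophin results are not reported here.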

Additional observations from a re-analysis of the deposited data

Results flagged for a closer look

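The response of Fgf16 at 6 h went opposite ways in the 2 genotypes. Both GS libraries at 6 h lay below both intact GS libraries, at 1.28 and 1.45 CPM against 1.57 and 2.24 CPM, while both WT libraries at 6 h lay above both intact WT libraries, at 1.06 and 1.30 CPM against 0.855 and 0.976 CPM. The difference of the log2 responses, GS minus WT, was -0.844, and its edgeR test did not pass (adjusted p = 0.579).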

How the results depend on the processing

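Among values of members that passed, 0 of 894 changed sign under an alternative, and among values that did not pass, 181 of 3353 did, Bdnf included. The count of members called in GS at 6 h was 2, with 2605 of all genes called. It became 1 with limma-voom (2508 genes), 1 without the low-count filter (2523) and 1 with a cortical covariate (2684). It became 3 with DESeq2 (3070), with only the compared groups (3607) and with the replicate block (2709). In GS at 3 d it was 2 (6598 genes) and became 1 with a minimum mean of 1 CPM (6424), which removes Fgf16. In WT at 6 h it was 1 (769 genes) and became 2 with DESeq2 (1457) and 2 with only the compared groups (1482). In WT at 3 d it was 3 (5153 genes) and became 1 with only the compared groups (3216) and 1 with the cortical covariate (2497). Dropping the 3 cortical-rich WT libraries leaves 1 library in each of WT intact, WT 6 h and WT 15 d. The WT counts were then lower at 6 h, 3 d and 15 d, for the members and over all genes alike. Counts over all genes also moved when 1 library at a time was left out, so the ranges that follow are not particular to the members. Leaving out 1 library at a time gave 1 to 4 members at 6 h, 2 to 4 at 3 d and 5 to 6 at 15 d averaged over genotypes. It gave 0 to 3, 2 to 3 and 2 to 5 in GS, and 0 to 1, 1 to 3 and 1 to 3 in WT, at 6 h, 3 d and 15 d. All genotype and response comparisons stayed at 0.

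Replicate numbers were not taken as pairing the libraries: correlations of same-numbered deviations ran from -0.0991 to 0.174, and 3 of 28 pairs of groups, all among WT 3 d, GS 15 d and WT 15 d, were over 0.1. With the replicate block the WT count at 6 h was 2, Cntf being added (log2 fold change -1.94, adjusted p = 0.0343), and Cntf was also added in GS at 6 h (-1.48, adjusted p = 0.0267). The 6 to 26 counts of Cntf in each 6 h library limit the precision of its value there.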

Other observations

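Other secreted trophic factors and their receptors were also measured. Of the 14 listed, 2 rose and 3 fell at 6 h, 6 rose and 3 fell at 3 d, and 8 rose and 1 fell at 15 d, averaged over GS and WT, where 21.3%, 46.6% and 47.3% of all genes were called. Met, coding for the receptor of hepatocyte growth factor, rose by 1.05 ± 0.31, 3.48 ± 0.27 and 3.66 ± 0.27 on the log2 scale at 6 h, 3 d and 15 d (SE; edgeR adjusted p = 0.0259, 3.9e-07 and 2e-07). Met started low, with means of 0.291 CPM in intact GS and 0.157 CPM in intact WT. At 15 d it had 2.75 CPM in GS and 2.67 CPM in WT. Its ligand Hgf rose by 0.78 ± 0.17, 1.52 ± 0.17 and 1.25 ± 0.17 (adjusted p = 0.00514, 6.18e-06 and 3.14e-05). Manf, coding for a factor induced by stress of the endoplasmic reticulum, fell by 0.37 at 6 h and rose by 1.01 at 3 d and 0.61 at 15 d.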
